A study of Sus scrofa with 8 samples.

Results

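The genes described here are the transcripts of differentiated keratinocytes and the skin barrier, a set of 39 gene symbols spanning suprabasal keratins, cornified envelope proteins, junction proteins, processing enzymes, desquamation proteases, barrier lipid genes and a regulator of the programme. They were chosen by symbol, with earlier results of these data known, and 32 of the 39 were found by name among the 31907 genes counted. LOR, FLG, FLG2, SPRR3, KPRP and LIPK were not analysed here, and TGM3, matched by gene identifier in a table of gene names, was kept outside the counts of the 32 genes. RNA was sequenced from 8 whole skin biopsies of 2 wild-type Yorkshire swine, pig 13 and pig 14. Each pig gave 2 injected sites, where IL-15 (200 ng, carried in 100 µl saline) was placed within the dermis 3 h before the biopsy, and 2 control sites with no injection. IL-15, known for its action on lymphocytes, works through the kinases JAK1 and JAK3, and the study sought genes it induces in skin. The injected sites were 12c and 12e in pig 13 and 12c and 12d in pig 14, and the control sites were 6b and 7b in pig 13 and 6b and 7e in pig 14. No site received saline alone, and every injected site carries the number 12 and every control site the number 6 or 7, so IL-15, the injection itself and the site cannot be told apart. The 4 biopsies of a group come from 2 animals, so p-values measure the spread between sites within these pigs.

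Keratinocytes divide in the basal layer of the epidermis and differentiate as they move outwards. They first exchange the basal keratins KRT5 and KRT14 for KRT1 and KRT10, then lay down an envelope of cross-linked proteins beneath the membrane and secrete lipids that fill the space between the dead cells of the stratum corneum. Desmosomes and corneodesmosomes hold these cells together until serine proteases of the kallikrein family, restrained by their inhibitors, cut them and release the outermost cells. A whole biopsy also holds dermis, hair follicles, vessels and fat, so a level relative to all counts depends on how much epidermis the biopsy contains. In such samples fewer keratinocytes and less RNA per keratinocyte cannot be told apart.

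Total counts ran from 28471089 to 36070107 per biopsy, and the 32 genes held 0.828% of them in the injected biopsy 12d of pig 14 and 3.34% in the control biopsy 7b of pig 13. These biopsies were the extremes for the set. The biopsy 7b was the highest of 8 for 16 of the 32 genes, against 19.8% of all 19862 genes tested, and 12d was the lowest for 26 of the 32, against 13.3% of all genes. Summed over the 32 genes, levels as CPM (read counts scaled to the size of each library, after TMM adjustment) were 14856 and 30619 in the control biopsies 6b and 7b of pig 13, and 15409 and 16673 in its injected biopsies 12c and 12e. In pig 14 they were 17095 and 13302 in the control biopsies 6b and 7e, and 13659 and 8630 in the injected biopsies 12c and 12d. Markers of other tissue also differed between these biopsies. Summed CPM of 15 fibroblast markers was 26088 in 7b against 86321 in the other pig 13 control, and that of 20 hair follicle markers was 2093 against 6344. Their part in the values of the barrier genes was not tested. Counts for the set and its role groups from the fit over both pigs are therefore given also without 7b. The fold changes of members lower at an unadjusted p under 0.05 are treated in the same way.

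Markers that define differentiated keratinocytes were abundant in every biopsy. KRT10, KRT1 and KRT2 were the most abundant of the 32 genes per kilobase of gene length, with means over the 8 biopsies of 1921, 1644 and 1285 CPM per kilobase. They were followed by KRTDAP at 750 and CALML5 at 598. All other members lay between 3.16 for LIPN, a lipase of the outer epidermis, and 157 for CDSN. KRT1, KRT10 and KRT2 together held 57.0% of the summed CPM of the set in 12d of pig 14 and 74.5% in 7b of pig 13. All 32 genes passed the filter on low counts.

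Barrier genes were lower on average at IL-15 sites, with no single gene passing the test over all genes. Of the 32 genes, 28 had a negative log2 fold change of injected over control sites, against 51.8% of all genes tested, and the median was -0.40 against -0.01 for all genes. Single values ran from -1.09 for SERPINA12, a serine protease inhibitor also called vaspin, to 0.24 for EVPL, which encodes envoplakin. By edgeR's quasi-likelihood test with pig as a block, 0 of the 32 passed an adjusted p of 0.05, where 7 of all genes did (0.0352%), all of them higher. At an unadjusted p under 0.05, 13 members were lower and 0 higher, where 2.15% of all genes were lower and 2.39% higher. The members were chosen with earlier results known and varied together across biopsies, so these counts are a description. DESeq2 called 1 member, SERPINA12 (log2 fold change -1.09, adjusted p = 0.0050), among 58 genes (0.292%). Without 7b the median was -0.28, 26 of the 32 were negative, and CDSN, KLK5, SERPINA12 and LIPM were lower at an unadjusted p under 0.05, against 2.55% of all genes. Without 12d of pig 14 there were 3 such genes, and without both biopsies 2, with a median of -0.12. Without 6b, the other control of pig 13, there were 23, with a median of -0.55.

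**Figure D1:**
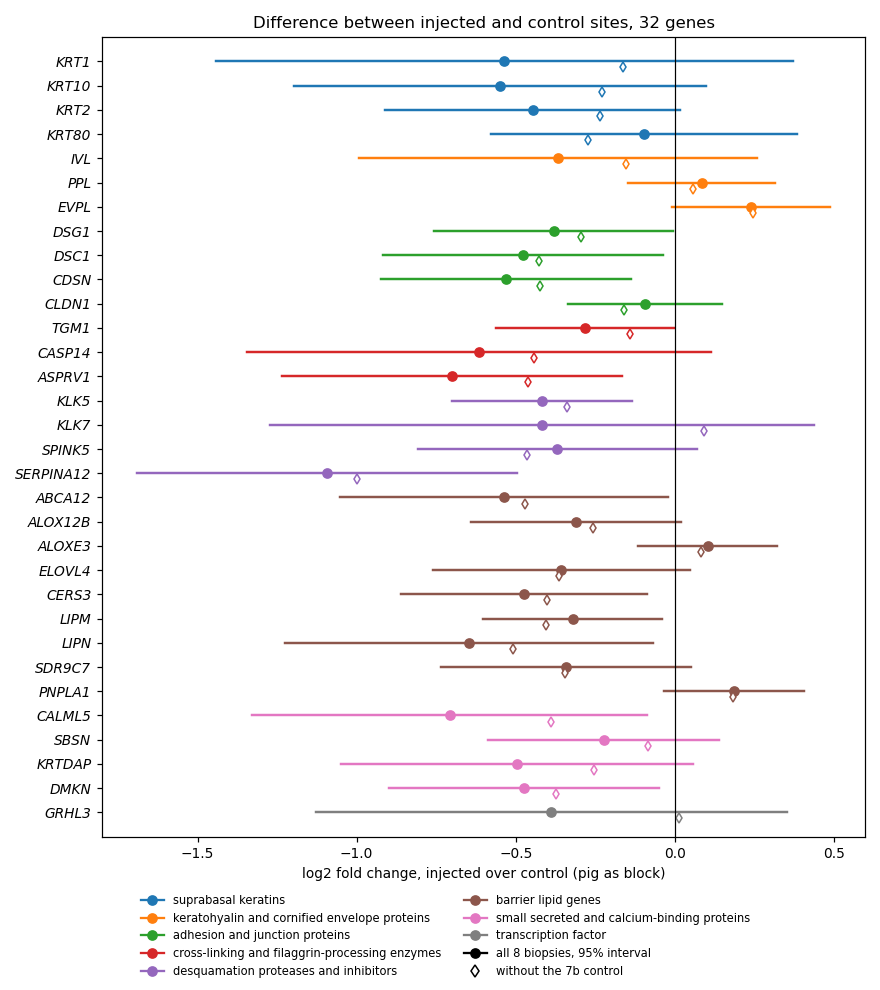
Log2 fold change of injected over control sites for each of the 32 barrier genes (x axis), coloured by role, from edgeR with pig as a block. Filled circles use all 8 biopsies with 95% confidence intervals, and open diamonds leave out the control biopsy 7b of pig 13. Of the circles, 28 of 32 lie below 0, and the interval of SERPINA12 runs from -1.69 to -0.50.

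All 4 keratins had negative values and none reached an unadjusted p of 0.05. KRT1 and KRT10 pair into the filaments of suprabasal cells, and KRT1 lies on chromosome 5 from 18012925 to 18018582 and KRT10 on chromosome 12 from 21641271 to 21645636 (Sscrofa11.1). KRT1 was at 3423 and 9706 CPM in the control biopsies 6b and 7b of pig 13, at 3992 and 4751 at its injected sites 12c and 12e, at 3898 and 1784 in the controls 6b and 7e of pig 14, and at 2827 and 1233 at its injected sites 12c and 12d. The groups overlapped, and the highest and lowest of the 8 biopsies were 7b and 12d. The means were 4703 ± 3456 in control and 3200 ± 1532 in injected biopsies (SD, n = 4), with a log2 fold change of -0.54 ± 0.40 (SE, adjusted p = 0.964 in edgeR), or -0.16 ± 0.40 without 7b.

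In the same order of biopsies (pig 13 controls 6b and 7b, pig 13 injected 12c and 12e, pig 14 controls 6b and 7e, pig 14 injected 12c and 12d), which holds for every gene below, KRT10 was at 3518, 8387, 3339, 4234, 4192, 3289, 3570 and 1922 CPM. Again 7b was highest and 12d lowest, and the groups overlapped. The log2 fold change of KRT10 was -0.55 ± 0.29, and -0.23 ± 0.24 without 7b. KRT2, the keratin of the upper spinous and granular layers, was at 2813, 4715, 2291, 2477, 2228, 2731, 2450 and 1768 CPM. Both injected sites of pig 13 lay below its controls, while in pig 14 they overlapped (-0.45 ± 0.21, adjusted p = 0.964 in edgeR). KRT80, a keratin found in many differentiated epithelia, was at 195, 153, 253, 206, 196, 165, 134 and 106 CPM. Its injected sites lay above the controls in pig 13 and below them in pig 14, and its log2 fold change over both pigs was -0.10 ± 0.21.

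Suprabasal keratins were also set against basal keratins of the same biopsy, per kilobase, in ratios chosen after their values were seen and given with no test. KRT10 over KRT14 was 2.98 and 4.02 in the pig 13 controls and 2.45 and 2.82 at its injected sites, and 5.67 and 4.63 in the pig 14 controls and 2.68 and 1.58 at its injected sites. Every injected biopsy was below every control biopsy. KRT1 over KRT5 ran from 0.909 to 2.40 in injected and from 2.27 to 4.53 in control biopsies, which overlapped. The basal partners themselves differed by pig. KRT5 was at 6309, 10850, 8087, 8267, 3597, 3171, 6419 and 5673 CPM, higher at injected than at control sites in pig 14 and overlapping in pig 13 (0.38 ± 0.25, or 0.65 ± 0.17 without 7b). KRT14 was at 4289, 7563, 4936, 5450, 2685, 2576, 4834 and 4405 CPM, with the same pattern (0.31 ± 0.25, or 0.59 ± 0.16 without 7b). The list of 15 basal keratinocyte markers had a median of 0.11, with 0 of the 15 at an unadjusted p under 0.05 in either direction, and within pigs its median was -0.22 in pig 13 and 0.42 in pig 14. Without 7b the median was 0.24 and 3 were higher, KRT5, KRT14 and COL17A1 (3.38% of all genes). Averaged over genes as centred log2 CPM, the 32 barrier genes minus the basal list gave -0.18 and -0.02 in the controls of pig 13, -0.0028 and -0.14 at its injected sites, 0.73 and 0.40 in the controls of pig 14 and -0.29 and -0.50 at its injected sites. The gap between groups on this scale was in pig 14, and in pig 13 the groups overlapped.

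**Figure D2:**
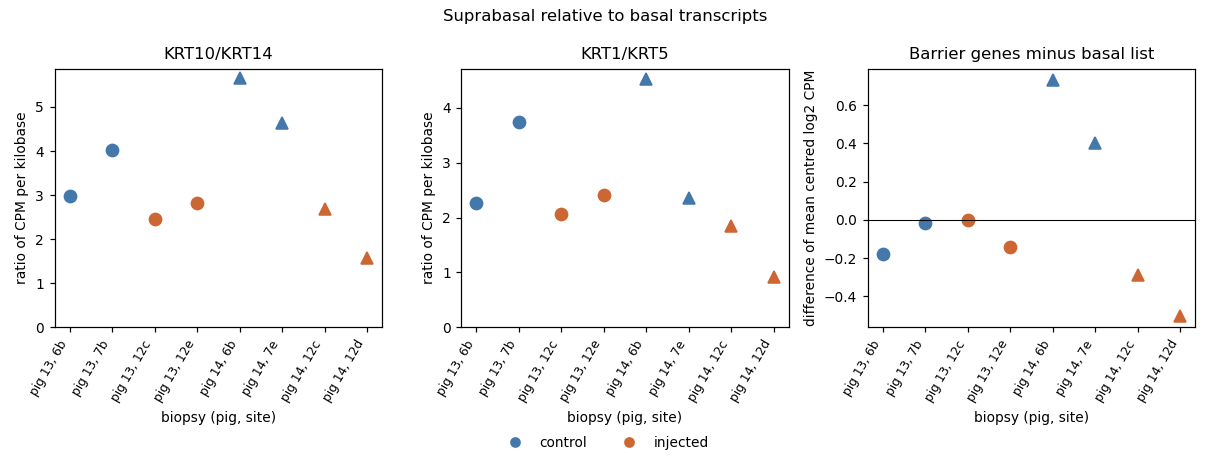
Ratio of KRT10 to KRT14 and of KRT1 to KRT5 (CPM per kilobase) and the difference of mean centred log2 CPM between the barrier genes and 15 basal keratinocyte markers, for each biopsy (x axis). Circles are pig 13 and triangles pig 14. KRT10 over KRT14 is 1.58 to 2.82 in injected and 2.98 to 5.67 in control biopsies.

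Of the proteins of the cornified envelope, 3 of the 8 given were analysed, and they did not share a direction. The median of the 3 was 0.08. IVL encodes involucrin, an early scaffold of the envelope, and was at 187, 365, 253, 181, 148, 280, 189 and 139 CPM. Values of the 2 groups overlapped in each pig (-0.37 ± 0.27). PPL encodes periplakin, which links the envelope to the keratin network, and was at 435, 431, 487, 506, 408, 383, 401 and 373 CPM. It varied less than the keratins (0.08 ± 0.10). EVPL, the partner of PPL, was at 156, 150, 170, 169, 112, 102, 156 and 113 CPM. Both injected sites were above both controls in each pig, as for 3.11% of all genes, and its log2 fold change of 0.24 ± 0.11 did not pass (adjusted p = 0.964 in edgeR). EVPL overlaps CDK3 on the opposite strand.

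Adhesion genes included 3 of 4 that were lower at an unadjusted p under 0.05 (2.15% of all genes), with a median of -0.43. Without 7b only CDSN, 1 of 4, was lower at that threshold (2.55% of all genes). DSG1 and DSC1 encode the desmosomal cadherins of the upper epidermis. DSG1 was at 735, 1077, 837, 705, 985, 756, 675 and 531 CPM and DSC1 at 626, 891, 707, 597, 1127, 813, 700 and 465 CPM. Both were lower at both injected sites in pig 14 and overlapped in pig 13, with log2 fold changes of -0.38 ± 0.17 and -0.48 ± 0.20, or -0.30 ± 0.17 and -0.43 ± 0.22 without 7b. Their ratio per kilobase stayed between 0.752 and 1.04 over the 8 biopsies. CDSN encodes corneodesmosin, the extracellular glue of the stratum corneum, and was at 296, 487, 349, 283, 590, 477, 337 and 298 CPM. Control biopsies averaged 463 ± 122 CPM and injected ones 317 ± 31.5 (SD, n = 4), a log2 fold change of -0.53 ± 0.18 (adjusted p = 0.964 in edgeR) and of -0.42 ± 0.19 without 7b. The tight junction gene CLDN1 ranged from 165 to 210 CPM at injected and from 180 to 219 at control sites (-0.09 ± 0.11).

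Of the enzymes that cross-link the envelope or process filaggrin, the 3 counted had negative values. At an unadjusted p under 0.05, 2 of 3 were lower (2.15% of all genes), and 0 of 3 without 7b. TGM3, which was kept outside these counts, had a positive value. ASPRV1, the retroviral-like protease that trims profilaggrin, was at 203, 450, 224, 208, 374, 258, 198 and 164 CPM. In pig 14 both injected sites were below both controls, and in pig 13 they lay just above the control 6b and well below 7b. Its log2 fold change was -0.70 ± 0.24 (adjusted p = 0.964 in edgeR), or -0.46 ± 0.21 without 7b. CASP14, a caspase that acts in cornification, was at 21.5, 47.6, 29.7, 27.3, 54.1, 34.7, 28.3 and 17.4 CPM (-0.62 ± 0.31, or -0.44 ± 0.36 without 7b). TGM1, the membrane-bound transglutaminase, overlaps RABGGTA on the same strand in the annotation. It was at 74.0, 113, 74.8, 76.2, 73.6, 74.3, 67.2 and 57.0 CPM. Apart from 7b, its controls lay within 1 CPM of each other, and its log2 fold change of -0.28 ± 0.13 was -0.14 ± 0.10 without that biopsy. The soluble transglutaminase TGM3 was at 223, 260, 253, 238, 159, 147, 224 and 170 CPM (0.19 ± 0.12, adjusted p = 0.964 in edgeR).

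SERPINA12 stood at the low end of the set. This inhibitor of kallikrein 7 lies on chromosome 7 from 115720677 to 115734816. It was at 18.4 and 34.5 CPM in the controls and 15.8 and 17.0 at the injected sites of pig 13, and at 78.9 and 54.6 in the controls and 27.3 and 20.2 at the injected sites of pig 14. It was the only member with both injected sites below both controls in each pig, as for 2.83% of all genes. The mean was 46.6 ± 26.1 CPM in control and 20.1 ± 5.15 in injected biopsies (SD, n = 4). The log2 fold change was -1.09 ± 0.26 (adjusted p = 0.772 in edgeR), with a 95% interval from -1.69 to -0.50, and -1.0 ± 0.31 without 7b. Within each group pig 14 had the higher levels, and the log2 fold change was -0.69 within pig 13 and -1.49 within pig 14.

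Of the 4 protease and inhibitor genes, SERPINA12 and KLK5 were lower at an unadjusted p under 0.05, with and without 7b (2.15% and 2.55% of all genes). KLK5, which activates KLK7, was at 28.0, 40.6, 27.4, 30.2, 39.1, 41.0, 27.0 and 26.5 CPM. Injected sites were at 26.5 to 30.2 CPM, and 3 of the 4 controls were above them (-0.42 ± 0.13, adjusted p = 0.922 in edgeR, or -0.34 ± 0.13 without 7b). KLK7, the chymotrypsin-like protease that cuts corneodesmosin, was at 46.6, 167, 65.8, 73.2, 71.7, 66.1, 54.9 and 63.7 CPM. The 7b biopsy alone was far above the others, and the log2 fold change of KLK7 of -0.42 ± 0.36 turned to 0.09 ± 0.16 without it. SPINK5 encodes LEKTI, the inhibitor of both proteases, and was at 129, 123, 134, 117, 296, 175, 147 and 136 CPM. Its difference was in pig 14, at -0.74, and the groups overlapped in pig 13. Over both pigs the log2 fold change of SPINK5 was -0.37 ± 0.19, and -0.12 without the control 6b of pig 14. KLK5 and KLK7 overlap on the same strand in the annotation, so reads in the shared part may be counted for either or for neither.

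**Figure D3:**
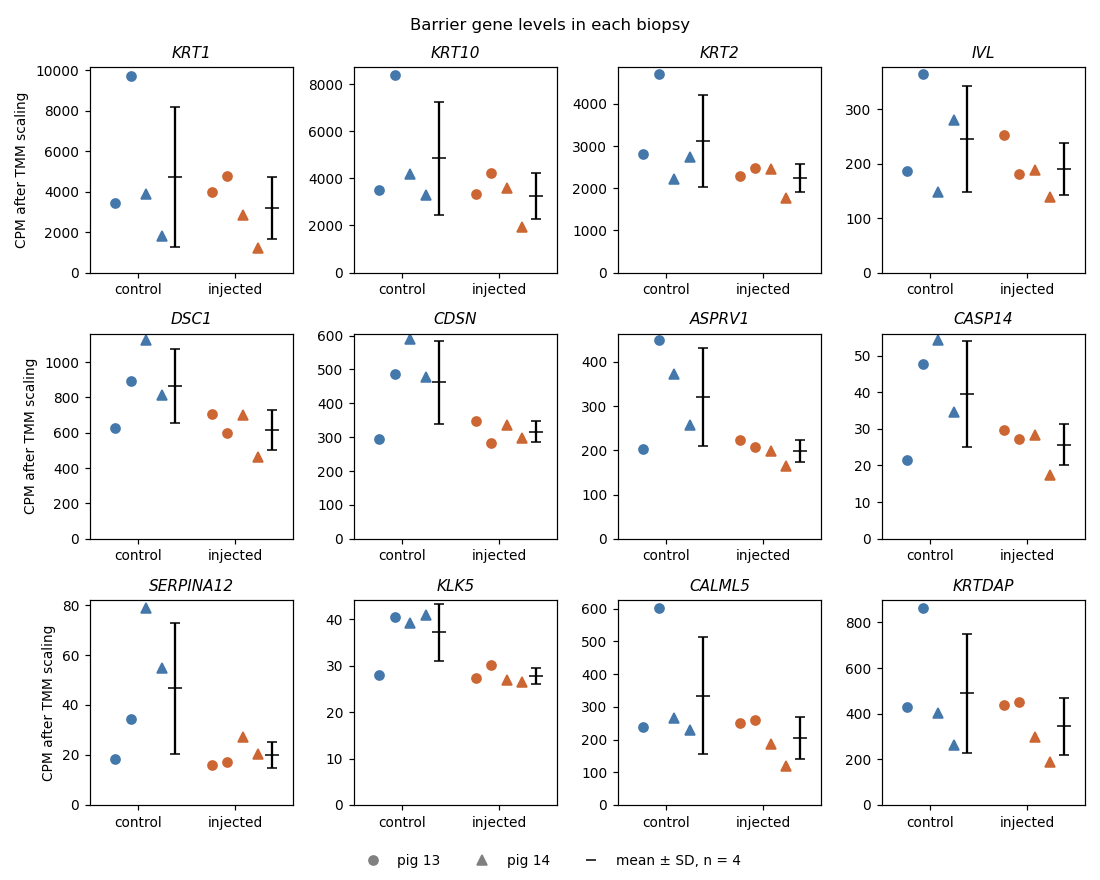
CPM after TMM scaling (y axis, each panel with its own scale from 0) in control and injected biopsies for 12 barrier genes, with circles for pig 13, triangles for pig 14, and bars for mean ± SD of 4 biopsies. SERPINA12 ranges from 15.8 to 27.3 CPM at injected and from 18.4 to 78.9 at control sites. The highest control of KRT1, CALML5 and KRTDAP is 7b of pig 13.

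Barrier lipid genes were lower at an unadjusted p under 0.05 in 4 of 9 members (2.15% of all genes), with a median of -0.34. Without 7b only LIPM, 1 of 9, was lower at that threshold (2.55% of all genes). ABCA12, which loads lipids into lamellar granules, was at 95.1, 143, 106, 88.7, 134, 94.5, 83.5 and 48.4 CPM (-0.54 ± 0.23, or -0.47 ± 0.27 without 7b). CERS3, the synthase of ceramides with ultra-long acyl chains, was at 31.1, 45.2, 32.6, 30.2, 46.0, 32.1, 28.4 and 20.7 CPM (-0.47 ± 0.17, adjusted p = 0.964 in edgeR, or -0.40 ± 0.19 without 7b). For both genes the pig 14 injected sites lay below the pig 14 controls, and the pig 13 groups overlapped. The epidermal lipases LIPM and LIPN lie near each other on chromosome 14. LIPM was at 74.3, 67.1, 69.7, 65.7, 79.3, 67.8, 54.0 and 44.1 CPM (-0.32 ± 0.13), and was one of the genes whose difference was larger without 7b, at -0.41 ± 0.12. The difference of LIPM was smaller without the injected biopsy 12d of pig 14, at -0.21, and without the control 6b of pig 14, at -0.22. LIPN was at 9.49, 18.5, 12.8, 9.53, 16.0, 10.8, 7.76 and 5.81 CPM (-0.65 ± 0.26, or -0.51 ± 0.29 without 7b).

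The lipoxygenases that act in turn on acylceramides, ALOX12B and ALOXE3, are neighbours on chromosome 12. ALOX12B was at 55.3, 74.3, 54.1, 63.1, 68.1, 63.7, 56.7 and 38.1 CPM (-0.31 ± 0.15). ALOXE3 ranged from 51.2 to 64.9 CPM at injected and from 51.6 to 59.7 at control sites (0.10 ± 0.10). The fatty acid elongase ELOVL4 had -0.36 ± 0.18, SDR9C7, a dehydrogenase of the same lipid pathway, had -0.34 ± 0.18, and PNPLA1, which makes acylceramide, had 0.19 ± 0.10. PNPLA1 was the second member with both injected sites above both controls in each pig, with 19.0 to 22.3 CPM at injected and 17.3 to 18.9 at control sites.

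The small secreted and calcium-binding proteins all had negative values, and 2 of 4 were lower at an unadjusted p under 0.05 (2.15% of all genes). Without 7b there were 0 of 4. CALML5, a calmodulin-like protein of the granular layer, was at 239, 603, 250, 260, 267, 229, 186 and 120 CPM. Its log2 fold change of -0.71 ± 0.27 (adjusted p = 0.964 in edgeR) was -0.39 ± 0.20 without 7b. KRTDAP, keratinocyte differentiation-associated protein, was at 428, 865, 440, 450, 404, 262, 298 and 188 CPM (-0.50 ± 0.24, or -0.25 ± 0.21 without 7b). DMKN, dermokine, was at 392, 642, 467, 407, 537, 425, 346 and 245 CPM (-0.47 ± 0.19, or -0.37 ± 0.21 without 7b). SBSN, suprabasin, ranged from 194 to 325 CPM at injected and from 241 to 407 at control sites (-0.22 ± 0.16). These 3 genes lie in a cluster on chromosome 6, where SBSN and DMKN overlap on the same strand. GRHL3, a grainyhead-like transcription factor that drives late differentiation, was at 32.6, 87.8, 40.4, 38.9, 26.1, 34.9, 32.8 and 21.6 CPM, and its log2 fold change of -0.39 ± 0.31 was 0.01 ± 0.17 without 7b.

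**Figure D4:**
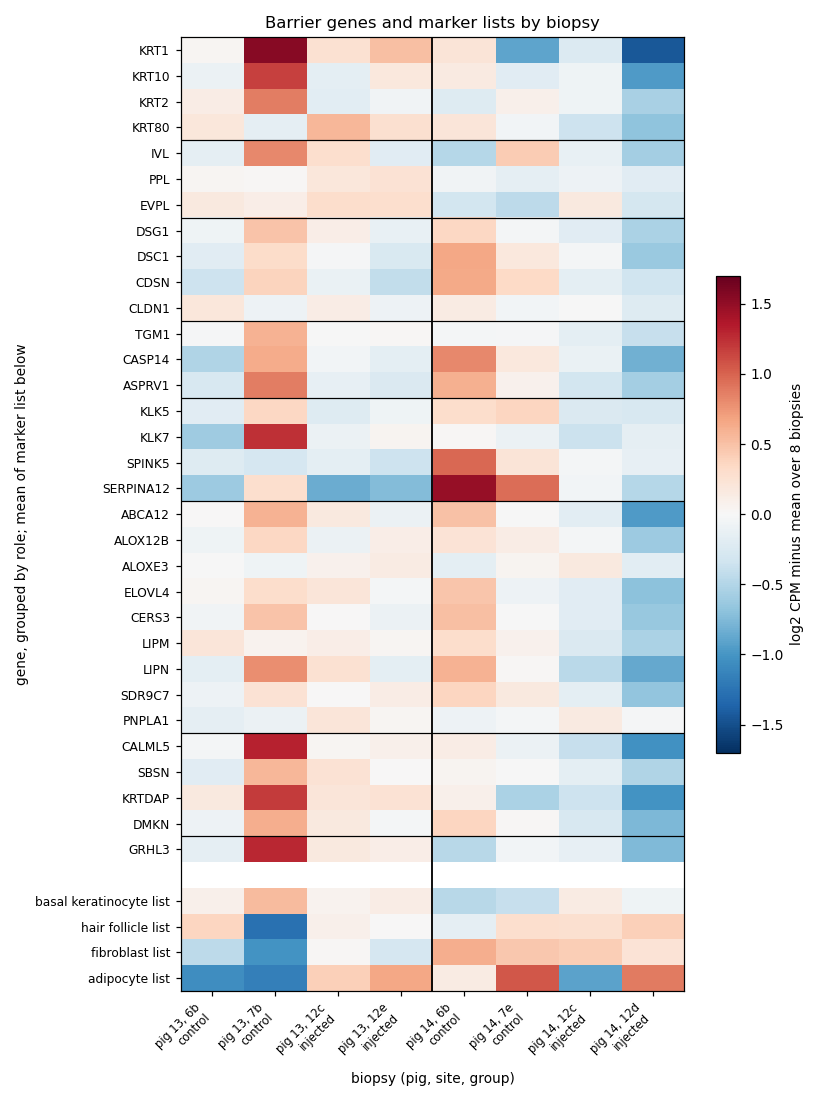
Log2 CPM of each barrier gene in each biopsy minus the mean of that gene over the 8 biopsies (colour), with rows grouped by role and, at the bottom, means of 4 marker lists. The columns 7b of pig 13 and 12d of pig 14 hold the highest values of 16 and the lowest of 26 of the 32 genes, and in 7b the hair follicle and fibroblast lists are at -1.27 and -1.02.

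The genes varied together across biopsies. The correlation of each member with the mean of the other 31 over the 8 biopsies, on the log2 scale, had a median of 0.83 and ran from -0.23 for PNPLA1 to 0.99 for DMKN. These 8 points share 2 animals and the 2 extreme biopsies, and the values are a description. EVPL, PPL, CLDN1, ALOXE3, PNPLA1 and SPINK5 were at 0.33 or less.

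Separation of injected from control sites was seen for more members in pig 14 than in pig 13. The median log2 fold change was -0.27 within pig 13 and -0.56 within pig 14. In pig 14, 21 of the 32 genes had both injected sites below both controls (21% of all genes) and 2 had them above (20.5%). In pig 13, 2 had them below (16.6%), KRT2 and SERPINA12, and 5 had them above (18.2%), which were KRT80, PPL, EVPL, ALOXE3 and PNPLA1. By the fitted values 27 of the 32 were lower in both pigs, as were 25.2% of all genes. The direction within pig 13 rested largely on the control 7b. Averaged over the 32 genes as centred log2 CPM, the pig 13 controls were at -0.10 in 6b and 0.52 in 7b. The injected sites of pig 13 were at 0.05 and -0.02, below 7b but above 6b. A test of the difference between pigs called 0 members and 0 genes in edgeR, and 0 members among 86 genes in DESeq2. At an unadjusted p under 0.05 it gave KRT80 (-0.99 ± 0.26, adjusted p = 0.439 in edgeR), LIPM (-0.52 ± 0.20) and SPINK5 (-0.73 ± 0.30), 3 of 32 against 8.22% of all genes. Without the control 6b of pig 14 these were -0.84 for KRT80, -0.39 for LIPM and -0.29 for SPINK5. KRT80 was 0.40 within pig 13 and -0.59 within pig 14. Without the control 6b of pig 13, where 313 genes were called, the test called KRT80 (-1.17, adjusted p = 0.0498 in edgeR) and KLK7 (1.05, adjusted p = 0.0265 in edgeR). For KLK7 the direction turned without 7b, the other control of pig 13, to -0.79 ± 0.19 (adjusted p = 0.221 in edgeR).

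**Figure D5:**
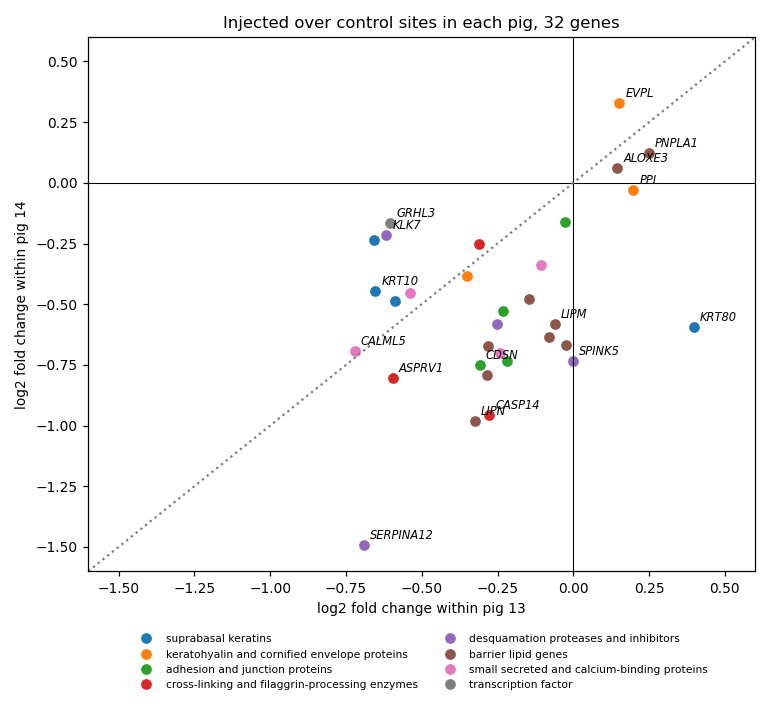
Log2 fold change of injected over control sites within pig 13 (x axis) and within pig 14 (y axis) for the 32 barrier genes, coloured by role, with a dotted line where both are equal. KRT80 is at 0.40 and -0.59, SERPINA12 at -0.69 and -1.49, and 27 of the 32 genes lie to the lower left of the zero lines.

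Other genes of the barrier pathways, taken from lists by function, had medians between -0.18 and 0.03, and 0 were called in edgeR. Of 21 other barrier lipid genes, 5 were lower, and 0 were higher, at an unadjusted p under 0.05 (2.15% and 2.39% of all genes), with a median of -0.18. Without 7b 4 were lower and 1 was higher, with a median of -0.09 (2.55% and 3.38% of all genes). They included STS, steroid sulfatase, at -0.45 ± 0.12 (adjusted p = 0.825 in edgeR) and again, at its other annotated gene, at -0.40 ± 0.14. ACER1, a ceramidase, and NIPAL4 (both picked once their values were known) had -0.63 ± 0.19 and -0.63 ± 0.20. ELOVL6, the most abundant of that list per kilobase, was at 164, 181, 330, 318, 160, 281, 161 and 216 CPM, higher at the injected sites of pig 13 alone (0.34 ± 0.27).

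For the lists that follow, the shares of all genes at an unadjusted p under 0.05 were 2.15% lower and 2.39% higher. Without 7b these shares were 2.55% and 3.38%. Among 16 other envelope and desmosome genes, 0 passed an unadjusted p of 0.05 in either direction, and the median was 0.02. Without 7b 1 was lower, SCEL. DSP, desmoplakin, the most abundant of these, had 0.03 ± 0.16, and SCEL, sciellin, had -0.48 ± 0.24. Of 21 other proteases and inhibitors, 2 were lower and 0 higher, with a median of -0.04, and without 7b there were 0. The inhibitor SPINK9 had -0.71 ± 0.26, and -0.38 ± 0.17 without 7b, and the abundant cystatin CST6 had 0.15 ± 0.31. Of 11 other tight junction genes, 1 was lower, OCLN (-0.29 ± 0.12), with CLDN23 added without 7b, and F11R had 0.01 ± 0.09. Of 25 regulators of differentiation, 2 were lower and 0 higher, with a median of 0.03, and without 7b 1 was lower and 1 higher. EHF, an epithelial ETS factor, had -0.50 ± 0.20, and -0.25 ± 0.12 without 7b, and KLF4 had 0.04 ± 0.14.

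Markers of other skin compartments also differed between the biopsies. All 20 hair follicle markers tested had positive values, where 51.8% of all genes had negative ones, with a median of 0.26. Within pig 13, 5 of the 20 were negative. Without 7b 12 of the 20 were negative, with a median of -0.02. Summed CPM of the hair follicle markers was 5096 to 7492 in injected and 2093 to 6834 in control biopsies, with KRT31 most abundant per kilobase (0.27 ± 0.29) and KRT27 at 0.54 ± 0.29. All 12 adipocyte markers were positive over both pigs, with a median of 0.50, but within pig 14 all 12 were negative (median -0.39, against 1.59 in pig 13). Their summed CPM was 1947 to 5000 in injected and 1386 to 5848 in control biopsies (PPARG 0.90 ± 0.60, ADIPOQ 0.82 ± 0.75). The 15 fibroblast markers had a median of 0.17, or 0.02 without 7b. Within pig 13 it was 0.51 with 1 of 15 negative, and within pig 14 -0.20 with 13 of 15 negative. They had a summed CPM of 87542 to 206745 in injected and 26088 to 210400 in control biopsies (THY1 0.39 ± 0.18, COL1A1 0.39 ± 0.45). Of 11 endothelial markers 3 were higher, and 0 were lower, at an unadjusted p under 0.05 (2.39% and 2.15% of all genes), and ACKR1 had 0.56 ± 0.09 (adjusted p = 0.173 in edgeR). DESeq2 called 1 of these 11 at an adjusted p under 0.05, against 0.292% of all genes. Of 11 sebaceous gland markers tested, 6 had negative and 5 positive values, with a median of -0.03 and 0 at an unadjusted p under 0.05. KRT79 of that list had 0.65 ± 0.33 and SCD, its most abundant gene, 0.43 ± 0.48. Sweat gland markers had a median of -0.14 (FOXA1 -0.32 ± 0.37, PIP -0.14 ± 0.31), as did 4 Langerhans cell markers (EPCAM -0.20 ± 0.16, CD74 -0.08 ± 0.15). S100A7, a keratinocyte gene of wounded and inflamed skin, was at 49.5 CPM in 7b, at 0 in 12d of pig 14, and at 0.0605 to 1.31 in the other 6 biopsies. It came from a list of 14 wound-associated keratinocyte symbols, of which 5 were found and 2 could be tested. S100A7 had -3.25 (unadjusted p = 0.22 in edgeR), and the other tested gene had 0.06.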

How the data were processed

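RNA of whole biopsies was freed of ribosomal RNA with RiboZero Gold, per the labels' protocols. Tools in the submitters' processing notes are STAR 2.5.1a and featureCounts 1.4.6-p5 (Subread), beside bcl2fastq, with the build Sscrofa11.1. Strandedness of counting was not given in the sources used here. Overlapping genes may not be told apart, which also holds for SDR9C7 with RDH16 and KLK7 with KLK6, each pair on the same strand. Per the file headers, the authors deposited read counts per Ensembl gene, with CPM and RPKM in the files of single biopsies. The deposited CPM (scaled to the counts assigned to genes) and RPKM (per kilobase of gene length) were not tested. Counts were taken from the series table, in which 425 of 31907 genes stand on several identical rows and were kept once. The single file of 7b held 607 complete genes and was not used.

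CPM after TMM scaling and CPM per kilobase were computed from the counts. Genes were filtered with filterByExpr (minimum count 10), leaving 19862, and tested with the quasi-likelihood F test of edgeR 4.0.16 (R 4.3.3) with pig and treatment, and with their interaction, adjusted by Benjamini-Hochberg at 0.05. Alternatives were DESeq2 1.42.0, RLE and upper quartile scaling, other filters, no pig term, and leaving out biopsies. The procedure was tested on simulated data. The common biological coefficient of variation was 19.8%. Pig was kept as the block because the labels name the animal. Deviations from group means correlated at 0.25 to 0.54 within and -0.49 to -0.28 across pigs. No biopsies agreed within sampling noise.

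The members and lists were chosen with earlier results of these data known, so the members' direction is not independent evidence. All biopsies are given for the 2 most abundant members per role, the smallest p per role, every member at an unadjusted p under 0.05, the 3 smallest interaction p and the extreme fold changes, and for other lists the smallest p and the most abundant gene are named.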

Additional observations from a re-analysis of the deposited data

Results flagged for a closer look

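In each of the 32 barrier genes the highest and lowest biopsy of each group of 4 was compared with its neighbour, as the gap over the whole range of the group, and 4 of 64 groups passed Dixon's 95% critical value. Chance flags about 5% of groups. Among the controls, 7b of pig 13 stood apart for TGM1 (0.979) and CALML5 (0.841), and 6b of pig 13 was low for KLK5 (0.877). Among injected biopsies, 12d of pig 14 was low for CASP14 (0.844). Without 7b the log2 fold change of TGM1 was -0.14 and that of CALML5 -0.39.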

How the results depend on the processing

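Over all genes, 7 were called in edgeR, 58 in DESeq2 and 3 to 19 when 1 biopsy was left out. Among the 32 barrier genes 0 were called in edgeR, also with each biopsy left out, and DESeq2 called 1, SERPINA12. The median of -0.40 was between -0.55 and -0.28 with 1 biopsy left out and -0.12 without 12d of pig 14 and 7b of pig 13 together, a setting chosen after seeing the data. The count of 13 members lower at an unadjusted p under 0.05, itself added after seeing the data, moved by over 1.5 times under several settings. With no replicate block, that is with pig left out of the model, it was 6 and the median -0.44. Without both biopsies it was 2, and with 1 left out it ran from 3 (12d of pig 14) to 23 (6b of pig 13), with 4 without 7b, 5 without 6b of pig 14 and 7 without 12e of pig 13. For the difference between pigs, 0 genes became 86 in DESeq2, 8 with no filter and 0 to 313 with 1 biopsy left out, and 0 members became 0 to 2. Over 15 settings, 25 of the 32 genes kept the sign of their log2 fold change. The exceptions were KRT80 (-0.27 to 0.081 with 1 biopsy left out, positive without 12d or 6b of pig 14), KLK7 (-0.65 to 0.091, positive without 7b, and 0.13 without both), GRHL3 (-0.58 to 0.012, positive without 7b, and 0.20 without both), and KRT1 (0.18), KRT10 (0.026), IVL (0.021) and SBSN (0.076) without both. The difference between pigs of KLK7 was 0.40, and -0.79 (without 7b) to 1.05 with 1 biopsy left out. The cause of these changes was not tested. With 4 biopsies from 2 pigs per group, small differences could not be resolved, and counts were not limiting for the abundant members.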
